A study of Tachycineta bicolor with 12 samples.

Results

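Neuropeptide receptors are cell-surface proteins, nearly all coupled to G proteins, through which a cell senses peptides released by neurons and endocrine cells. They were followed here in the transcriptome of the tree swallow (*Tachycineta bicolor*), a songbird, with the weight on brain and blood. Members were chosen by protein name: a segment was taken where its name held the words for a receptor of galanin, neuropeptide FF, neuropeptide Y, somatostatin, vasoactive intestinal polypeptide (VIP), melanocortins, oxytocin, opioids or orexin, or held vasopressin, vasotocin or tachykinin. The names matched 36 of the 14908 protein-coding segments, 32 of them receptors and 4 of them peptide precursors, namely the vasotocin precursor and 3 isoforms of the tachykinin precursor TAC1. The families were picked with their levels in brain and blood known, so every level below is a description. Gene symbols are short forms of the protein names given by the file, and names ending in -like are kept as such.

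The samples were brain, blood, ovary, spleen, liver and pectoral muscle of 2 adult free-living females, 1 caught while settling on a territory and 1 while incubating. For each tissue the RNA of both females was mixed at equal molarity into 1 pool, which was read once on a NextSeq and once on a MiSeq sequencer. The 12 libraries therefore hold technical repeats and no biological replicates. MiSeq reads were longer than NextSeq reads, and the study cut fragmentation short when larger fragments were prepared. The platforms may thus differ in library preparation as well. No test between tissues was possible, no p is given, and the intervals are 95% intervals of counting error alone. NextSeq totals ranged from 15484468 to 40798612 counts and MiSeq totals from 1011107.5 to 2004444, so the NextSeq library sets most of each level. Levels are counts per 1000000 (CPM) with both libraries of a tissue summed. Segment lengths were not used here, so a level is compared between tissues for 1 gene and not between genes, except in the search for similar patterns, which uses CPM as it is.

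Neuropeptides reach their receptors as transmitters between neurons or as hormones in the circulation, and most of the receptors here signal through inhibitory, stimulatory or phospholipase-linked G proteins. In the vertebrate brain they are known for feeding, stress, sleep, pain and social behaviour. Some of the same receptors are also known from immune cells and gonads. Bird blood differs from that of mammals in that its red cells and thrombocytes carry a nucleus. These nucleated cells hold messenger RNA. Most cell-type markers followed the labels as CPM. All 8 matched neuron markers of 9 listed and all 4 matched glia markers of 6 were highest in brain. The neuron marker NEFL was near in level between the 2 tissues, at 216.6 CPM in brain and 166.9 CPM in blood. GAD2 was at 786.6 CPM in brain and 37.4 CPM in blood. TMM scaling divides levels by 1.88 in brain and by 0.565 in blood, which puts NEFL higher in blood. DESeq2 factors of 1.84 and 0.479 do so too. The glia marker AQP4 was at 79.7 CPM in brain and 38.6 CPM in muscle. The TMM and DESeq2 factors for muscle, 0.364 and 0.365, put AQP4 higher in muscle. The other markers were not compared under other scalings. In blood, 10 of 11 matched erythrocyte markers of 14 were at their highest. Ovary, hepatocyte and muscle markers, 8, 5 and 4 matched, were all highest in their own tissue. Of 10 markers of hypothalamus and pituitary 6 were matched and 4 of these were highest in brain. The other matched ones were PRL, highest in ovary (6.57 CPM, against 1.12 CPM in brain), and TSHB, highest in spleen (1.45 CPM, against 0.0508 CPM in brain). Erythrocyte markers together took 462638 CPM of the blood pool and 920.2 CPM of the brain pool, which lowers the CPM of every other blood transcript.

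Most of the receptors had their highest level in brain, and few were present in blood. A level of 1 CPM or more, called present here, was reached by 30 of the 36 segments in brain, where 87.7% of all segments were present, and by 3 in blood, where 57.7% were. In ovary 14 were present (88.3% of all segments), in spleen 7 (83.4%), in liver 4 (66.7%) and in muscle 2 (61.2%). The muscle count was 6 with TMM or DESeq2 scaling (70.7% of all segments in each) and 8 without the 50 most abundant segments of each tissue (72.8%). With TMM and with DESeq2 the ovary count was 12 (82.1% and 81.4% of all segments) and the spleen count 5 (78.2% and 77.1%). Without the 50 most abundant segments these counts were 14 (89.1%) and 9 (84.7%). The share in brain lies near that of all segments, whereas the shares in blood, ovary, spleen, liver and muscle lie below it. No segment was present in all 6 tissues, against 46.5% of all segments, and the median was 2 tissues per member against 5 over all segments. At least 1 tissue passed the threshold for 32 members (97.7% of all segments). VIPR1 isoform X3, VIPR1-like, HCRTR2-like and TAC1 isoform X3 stayed under it in every tissue, the nearest being VIPR1-like at 0.965 CPM in brain.

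Of those 32, 26 had their highest level in brain (24.9% of all present segments), 2 in blood (8.89%), 3 in ovary (32.1%), 1 in liver (6.23%) and none in spleen (23.7%) or muscle (4.11%). Presence in brain alone was seen for 11 members (3.04% of all segments) and presence in brain and ovary alone for 9 (4.61%). Of those 9, OXTR and SSTR1 were near the threshold in ovary, at 1.09 and 1.22 CPM. TMM and DESeq2 factors for ovary, 2.23 and 2.43, take both below 1 there. The 2 members present in blood alone (0.409% of all segments) were the receptors GALR3 and NPFFR2, but at a threshold of 0.5 CPM there were 0, since brain held 0.711 and 0.584 CPM. None was present in ovary alone (2.33% of all segments), spleen alone (1.21%), liver alone (0.463%) or muscle alone (0.376%). The tissue specificity index τ, which runs from 0 for an even level to 1 for a single tissue, had a median of 0.568 over the 32 members and 0.461 over all present segments. It passed 0.8 for 1 member, the somatostatin receptor SSTR1 (5.4% of all present segments did). Levels under 2 CPM were set to 2 for τ, so a member low in every tissue scores low even where 1 tissue alone holds it. MC3R and SSTR5, present in brain alone at 1.96 and 2.41 CPM, had τ of 0 and 0.213. OPRM1, present in brain alone at 27.8 CPM, had 0.792.

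**Figure D1:**
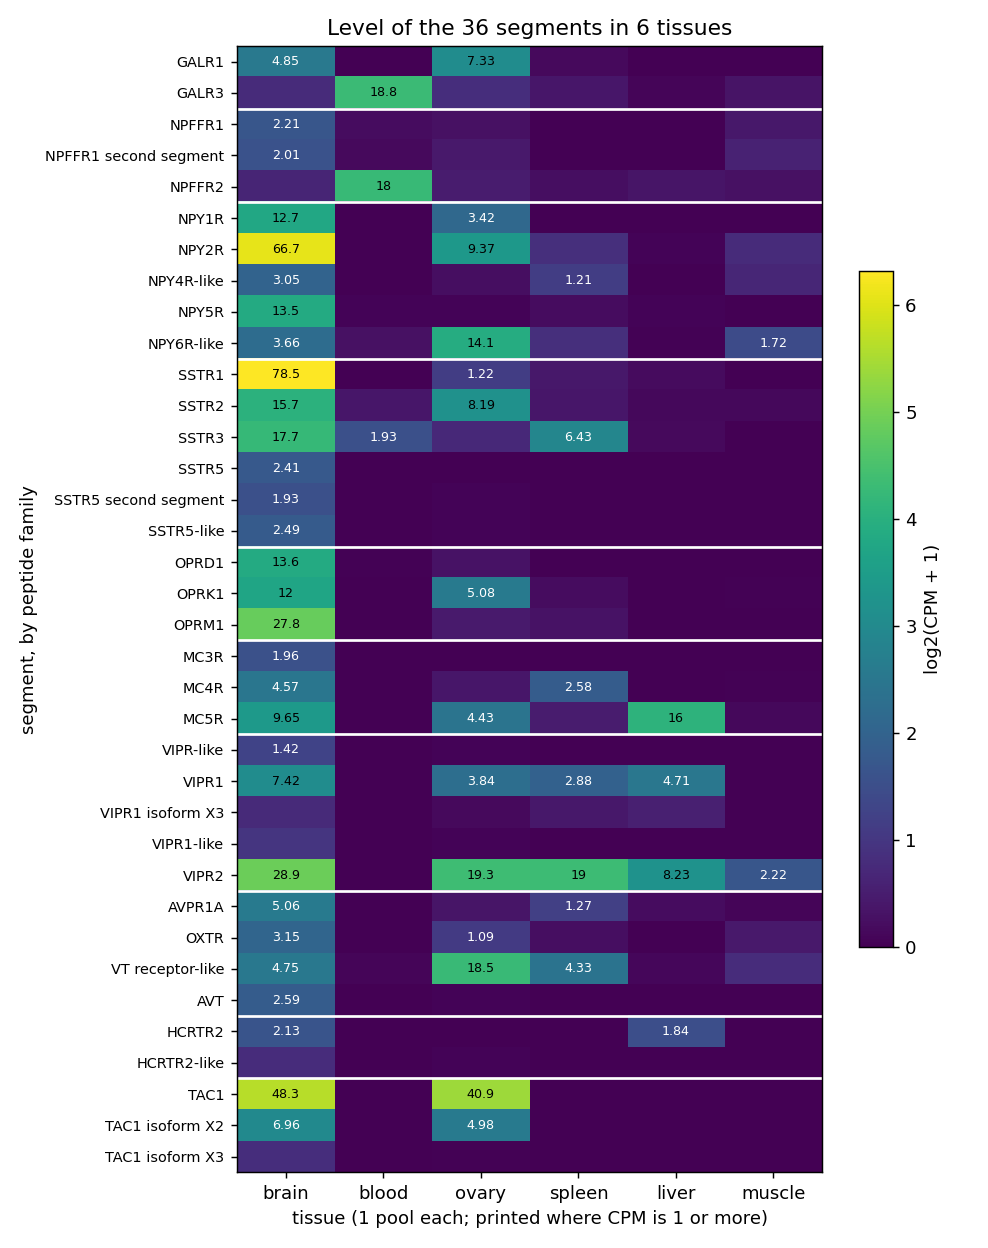
Levels of the 36 segments (rows, grouped by peptide family) in the 6 tissue pools (columns), as log2(CPM + 1) in colour with CPM printed where it is 1 or more. Colours are to be read along a row: of the 32 rows with a printed value, 26 are brightest in brain, while GALR3 and NPFFR2 are bright in blood at 18.8 and 18.0 CPM and under 1 CPM elsewhere.

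Galanin is a peptide of hypothalamic and autonomic neurons, and its receptors lower cellular activity mainly through inhibitory G proteins. GALR3, best matched to the white-throated sparrow protein, stood at 0.696 CPM in the NextSeq and 0.989 CPM in the MiSeq library of brain, against 18.5 and 24.1 CPM in those of blood. The blood libraries were far above all the others on both platforms, with no overlap. Ovary had 0.783 CPM, spleen 0.303, muscle 0.257 and liver 0.0707 with both libraries summed. No 2 neighbours in that order, with brain between ovary and spleen, differed beyond counting error. Tissues farther apart did: brain was 10.1-fold over liver (2.58 to 67.1) and 2.77-fold over muscle (1.17 to 6.74). The blood value rests on 601 counts and the brain value on 14. The brain level was 3.77% of the blood level (interval 2.05 to 6.38).

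GALR1, a galanin receptor of many mammalian brain regions, was without a count in blood. It stood at 4.85 CPM in brain (4.85 NextSeq, 4.95 MiSeq) and 7.33 CPM in ovary (7.47 and 4.83), and had no count in liver or muscle. The ratio of brain over ovary was 0.662 (0.512 to 0.85), yet the MiSeq libraries alone gave the order the other way round by a small margin. A GALR2 segment was not among the names. The galanin precursor GAL itself was at 2.85 CPM in brain, 0.47 CPM in blood and 3.99 CPM in ovary, and was thus present in the 2 tissues where GALR1 was. Spexin (SPX), a galanin-related peptide that activates GALR2 and GALR3 of human and zebrafish, was at 0.203 CPM in brain, 0.047 CPM in blood and 11.6 CPM in spleen.

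RFamide peptides are read by the neuropeptide FF receptors. NPFFR2, best matched to the starling protein, had 0.616 CPM in the NextSeq library of brain and no count in the MiSeq library, against 17.9 and 19.7 CPM in the blood libraries. Ovary had 0.401 CPM, liver 0.283, muscle 0.222 and spleen 0.182, and no 2 neighbours in that order, brain included, differed beyond counting error. Brain was 2.63-fold over muscle (1.02 to 6.98), while its ratios to ovary, liver and spleen had intervals that held 1. The brain level was 3.24% of the blood level (1.64 to 5.76), from 11.5 counts in brain and 575.5 in blood.

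NPFFR1 was higher in brain than in blood. In birds it is the receptor of gonadotropin-inhibitory hormone, the product of NPVF. Its 2 segments, from 1 assembly locus, were at 2.21 CPM in brain and 0.157 CPM in blood for the first and at 2.01 CPM in brain and 0.11 CPM in blood for the second. Both were under 1 CPM in the other tissues. The second was highest in brain as CPM but highest in muscle under TMM or DESeq2 scaling, at 1.07 in brain and 1.41 in muscle with TMM. NPVF was at 11.1 CPM in brain, 0 in blood and 0.802 in ovary.

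**Figure D2:**
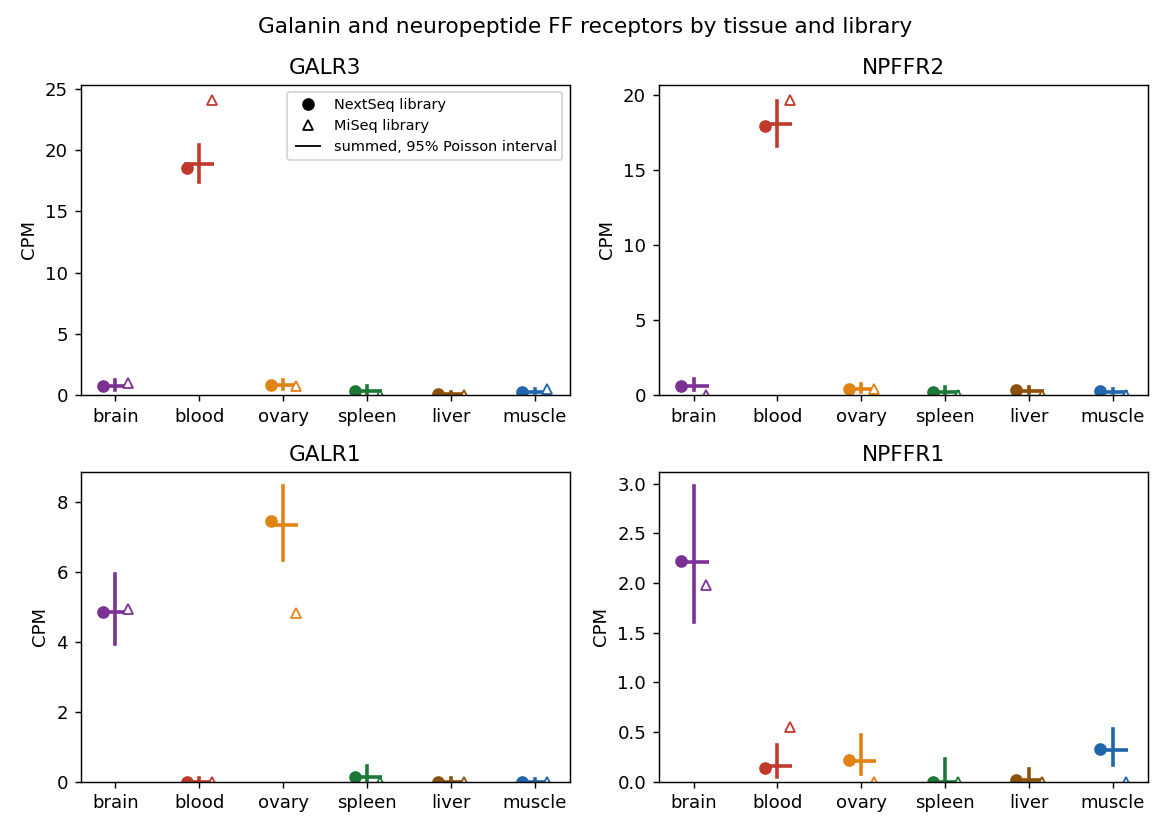
CPM of 4 receptors in the 6 tissues, each panel with its own axis from 0; filled circles are NextSeq libraries, open triangles MiSeq libraries, and the bars give the summed level with its 95% Poisson interval. GALR3 and NPFFR2 stand out in blood in both libraries, GALR1 in brain and ovary, and NPFFR1 in brain.

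In brain, ovary, spleen, liver and muscle, GALR3 and NPFFR2 lay below 5% of their blood level. Blood is a mixture, and in bulk RNA fewer cells of a type and less RNA per cell cannot be told apart. Spleen had 1.61% of the blood level for GALR3 (0.52 to 3.77) and 1.01% for NPFFR2 (0.207 to 2.96). Over the 11 erythrocyte markers the spleen level had a median of 0.701% of the blood level (range 0.144 to 229, the high one being GATA1). Over thrombocyte markers, 7 of 8 matched and 6 highest in blood, the median in spleen was 29.2% (5.61 to 99.7), and over lymphocyte markers, 7 of 8 matched and all highest in spleen, it was 3804% (246 to 18362). The thrombocyte medians and ranges leave out THBS1, which was too low in blood for a share. In brain the 2 receptors were at 3.77% (2.05 to 6.38) and 3.24% (1.64 to 5.76), against medians of 0.288% for erythrocyte and 1.85% for thrombocyte markers. Those markers ranged up to 134.5% and 6.65% in brain. The receptors were likewise above both medians in ovary (4.15% and 2.22%, against 0.973% and 1.82%) and in muscle (1.36% and 1.23%, against 0.479% and 0.931%). For NPFFR2 the intervals in brain, ovary (1.08 to 4.06) and muscle (0.573 to 2.31) hold the thrombocyte median. For GALR3 the interval in muscle (0.677 to 2.46) holds it. In liver GALR3 was at 0.375% and NPFFR2 at 1.57%, with medians of 0.441% and 0.561%. Summed thrombocyte markers were at 27.5 CPM in brain and 705.8 CPM in blood. These sums include THBS1, which alone had 13.4 CPM in brain and 0.047 CPM in blood. Summed lymphocyte markers were at 25.4 CPM in brain and 93.9 CPM in blood. The 5 matched markers of 7 for monocytes, macrophages and heterophils summed to 104.7 CPM in brain, 66.3 CPM in blood and 7624 CPM in spleen. Which blood cells carried the transcripts was not tested.

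**Figure D3:**
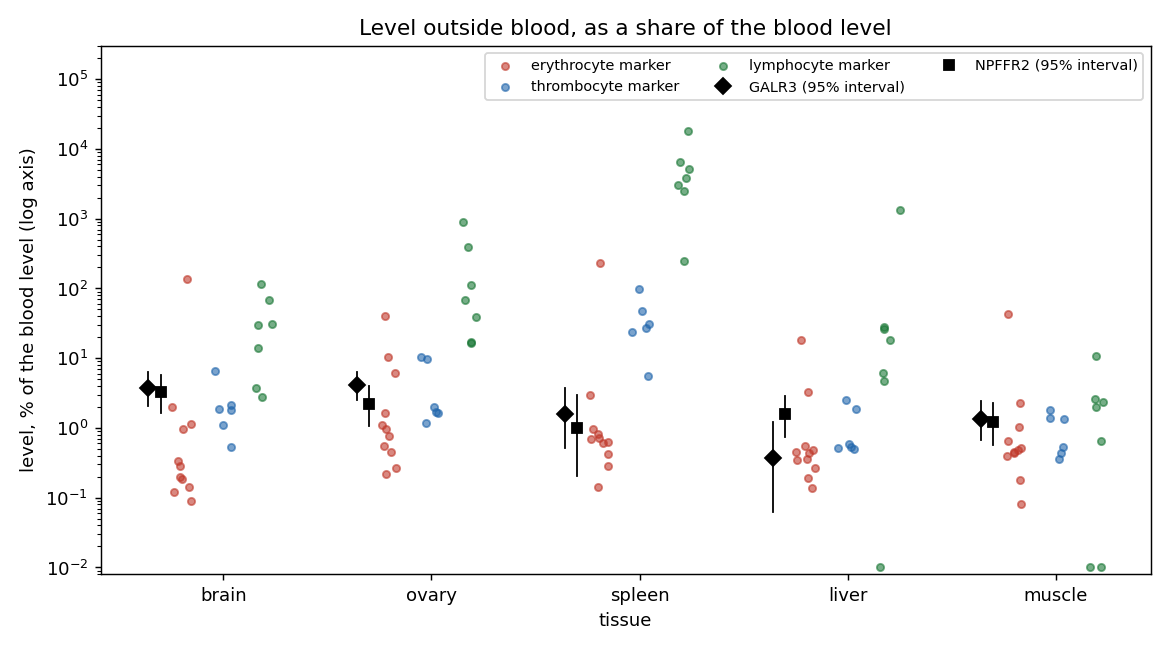
Level in 5 tissues as a percentage of the blood level on a log axis, for GALR3 (diamonds) and NPFFR2 (squares) with 95% intervals and for single markers of erythrocytes, thrombocytes and lymphocytes (dots; markers with no count are drawn at the foot of the axis). In spleen the receptors, at 1.61% and 1.01%, lie near the erythrocyte median (0.701%, with GATA1 at 229%). They lie below the thrombocyte (5.61% or more) and lymphocyte markers (246% or more) there. In brain, at 3.77% and 3.24%, they lie above the erythrocyte and thrombocyte medians (0.288% and 1.85%), though the NPFFR2 interval (1.64 to 5.76) holds the thrombocyte one.

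The segments whose 12 library values came nearest to those of each blood receptor were sought by Euclidean distance on log2(CPM + 1). This measure goes by absolute CPM without length scaling, so segments of the same pattern at much higher CPM, such as most erythrocyte markers, cannot come near. For NPFFR2 they were hemoglobin subunit pi (distance 1.05), an embryonic-type globin and itself on the erythrocyte list, the kinase PIM1 (1.16) and the channel bestrophin-1 (1.61). For GALR3 the same 3 came out, with bestrophin-1 at 1.31, PIM1 at 1.35 and hemoglobin subunit pi at 1.79. GALR3 and NPFFR2 were 1.32 apart. All of these segments were under 1 CPM outside blood, with 0.0254 CPM in brain and 21.2 CPM in blood for hemoglobin subunit pi. The search picks segments close to the receptors in every library, so this pattern follows from the search and is no separate result.

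The third receptor present in blood was SSTR3, a somatostatin receptor that mammalian neurons carry on their cilia. It had 17.4 and 21.8 CPM in the NextSeq and MiSeq libraries of brain, against 1.98 and 1.11 CPM in those of blood, and 6.43 CPM in spleen. Brain was 9.15-fold higher than blood (6.96 to 12.2) and 2.75-fold higher than spleen (2.20 to 3.45). Its 4-fold difference from blood, counted with 1 CPM added to each level, was lost under TMM scaling, which gave 9.40 in brain and 3.41 in blood, and under DESeq2 scaling.

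Somatostatin, a peptide that inhibits hormone release, had 6 receptor segments. SSTR1 was at 78.1 and 85.1 CPM in the 2 brain libraries and had no count in blood, so brain was at least 834-fold higher with the floor of 3 counts set for blood (0.0941 CPM). Ovary, next in order, had 1.22 CPM, 64.2-fold under brain (45.3 to 94.2). SSTR2, the subtype targeted by octreotide in human medicine, was less confined: 15.7 CPM in brain (16.0 and 10.4 by library), 0.298 CPM in blood and 8.19 CPM in ovary (8.31 and 5.95), with brain 52.6-fold over blood (27.8 to 113) and 1.91-fold over ovary (1.60 to 2.29). SSTR5, its second segment and SSTR5-like had 2.41, 1.93 and 2.49 CPM in brain and were under 1 CPM in all other tissues. The somatostatin precursor SST was at 12.96 CPM in brain, 0.0157 CPM in blood and 0 in the other tissues.

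Neuropeptide Y drives feeding in birds as in mammals, and 5 of its receptor segments were measured. NPY2R, a presynaptic autoreceptor in mammals, had 66.3 and 73.7 CPM in the brain libraries, no count in blood, and 9.20 and 12.6 CPM in the ovary libraries. Brain was 709-fold over the 3-count floor of blood and 7.11-fold over ovary (6.20 to 8.19). NPY1R followed the same order, with 12.5 and 17.8 CPM in brain, 0 in blood and 3.50 and 1.86 CPM in ovary, and 3.72-fold more in brain than in ovary (2.91 to 4.80). NPY5R, like NPY1R linked to food intake in rodents and chicken, was present in brain alone, at 13.7 and 11.4 CPM against 0.0499 and 0 CPM in blood, and 0.152 CPM or less elsewhere.

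The neuropeptide Y receptors of type 4 and 6 behaved otherwise. NPY6R-like was at 3.66 CPM in brain, 0.22 CPM in blood, 14.1 CPM in ovary and 1.72 CPM in muscle, so that brain was 0.259 of ovary (0.199 to 0.335). Its ovary libraries read 14.4 and 8.92 CPM and its brain libraries 3.78 and 1.48, without overlap. NPY4R-like, at 3.05 CPM in brain, 0 in blood and 1.21 CPM in spleen, was highest in brain as CPM but in muscle under TMM scaling by a margin of 1.64 to 1.62, and in spleen with MiSeq alone. The precursor NPY had 15.1 CPM in brain, 0 in blood and 1.57 CPM in ovary.

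Opioid receptors, the targets of enkephalins, dynorphins and endorphin, were all highest in brain. The mu receptor OPRM1 had 28.4 and 18.3 CPM in the brain libraries, no count in blood and 0.382 CPM in ovary. Brain was 296-fold over the 3-count floor of blood. The delta receptor OPRD1 had 13.3 and 19.8 CPM in brain, against 0.0332 and 0 CPM in blood. The kappa receptor OPRK1, which prefers dynorphin, was present in ovary as well: 12.1 and 10.4 CPM in brain, 0 in blood, and 5.11 and 4.46 CPM in ovary, with brain 2.37-fold over ovary (1.91 to 2.95). The enkephalin precursor PENK showed the same pair of tissues, at 93.8 CPM in brain, 0 in blood and 19.5 CPM in ovary, and the dynorphin precursor PDYN was at 4.90 CPM in brain, 0 in blood and 0.668 CPM in ovary.

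VIP releases prolactin in birds. Its receptors VIPR2, present in 5 tissues, and VIPR1, present in 4, were found in more tissues than any other member. VIPR2 had 29.1 and 26.2 CPM in the brain libraries and no count in blood, and blood was the 1 tissue without it. Ovary had 19.3 CPM, spleen 19.0, liver 8.23 and muscle 2.22. Ovary and spleen did not differ beyond counting error, and the lead of brain over liver, 3.51-fold (3.05 to 4.06), shrank under TMM scaling to 15.4 in brain against 14.5 in liver. VIPR1 was at 7.42 CPM in brain (7.28 and 9.89 by library), 0 in blood, 3.84 in ovary, 2.88 in spleen, 4.71 in liver and 0.0117 in muscle. It was highest in brain as CPM, in liver under TMM and DESeq2 scaling and in ovary with MiSeq alone. VIPR-like had 1.42 CPM in brain and was under 1 CPM elsewhere. The precursor VIP was at 10.1 CPM in brain and 0.047 CPM in blood.

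Melanocortin receptors read peptides cut from proopiomelanocortin and set pigmentation, steroid output and appetite. MC5R, the subtype of exocrine glands in mammals, was the 1 member highest in liver: brain libraries had 9.43 and 13.8 CPM, blood 0, ovary 4.49 and 3.34, and liver 15.9 and 18.0. Brain was 0.605 of liver (0.510 to 0.714). MC4R, the appetite receptor of the hypothalamus, had 4.57 CPM in brain, 0 in blood and 2.58 CPM in spleen, 1.77-fold higher in brain than in spleen (1.22 to 2.62). MC3R was at 1.96 CPM in brain and 0.0157 CPM in blood and had no count in the remaining tissues.

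Vasotocin and mesotocin are the avian counterparts of vasopressin and oxytocin. The segment named arg8-vasotocin receptor-like led in ovary: brain libraries had 4.66 and 6.43 CPM, blood 0.0665 and 0, ovary 18.3 and 21.2 and spleen 4.36 and 3.95. Brain was 0.257 of ovary (0.204 to 0.322) and did not differ from spleen beyond counting error (ratio 1.10, 0.797 to 1.51). The vasopressin V1a receptor AVPR1A, known for social behaviour, was at 5.20 and 2.47 CPM in the brain libraries, 0 in blood and 1.27 CPM in spleen, and the oxytocin receptor OXTR at 3.15 CPM in brain, 0 in blood and 1.09 CPM in ovary. The vasotocin precursor AVT, itself a member, had 2.57 and 2.97 CPM in brain and 0.0166 and 0 CPM in blood, and no more than 0.0382 CPM elsewhere. The segment named neurophysin 1-like, taken as the mesotocin precursor, was at 3.89 CPM in brain and 0.0314 CPM in blood.

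The orexin receptor HCRTR2, a receptor of the wakefulness peptides, was near in level between brain and liver. It had 2.20 and 0.989 CPM in the brain libraries and 1.88 and 1.12 CPM in the liver libraries, with no count in the other 4 tissues. Brain over liver was 1.16 (0.768 to 1.74), and liver was the higher under TMM, DESeq2 and top-50-free scaling and with MiSeq alone. HCRTR2-like reached 0.737 CPM in brain. The orexin precursor HCRT was at 2.11 CPM in brain and 0.0157 CPM in blood.

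Tachykinins were represented by their precursor, from which substance P and neurokinin A are cut. TAC1 had 47.5 and 62.3 CPM in the brain libraries, no count in blood, and 40.5 and 46.8 CPM in the ovary libraries. Brain was 1.18-fold over ovary (1.08 to 1.29) and at least 513-fold over blood. Isoform X2 of the same locus had 7.20 and 2.47 CPM in brain, 0 in blood and 5.13 and 2.23 in ovary. The substance P receptor TACR1 was at 2.13 CPM in brain, 0.0627 CPM in blood and 1.07 CPM in ovary. Its ovary level was just over the threshold of 1 CPM. TMM and DESeq2 scaling divide ovary levels by 2.23 and 2.43, which takes TACR1 below 1 there.

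**Figure D4:**
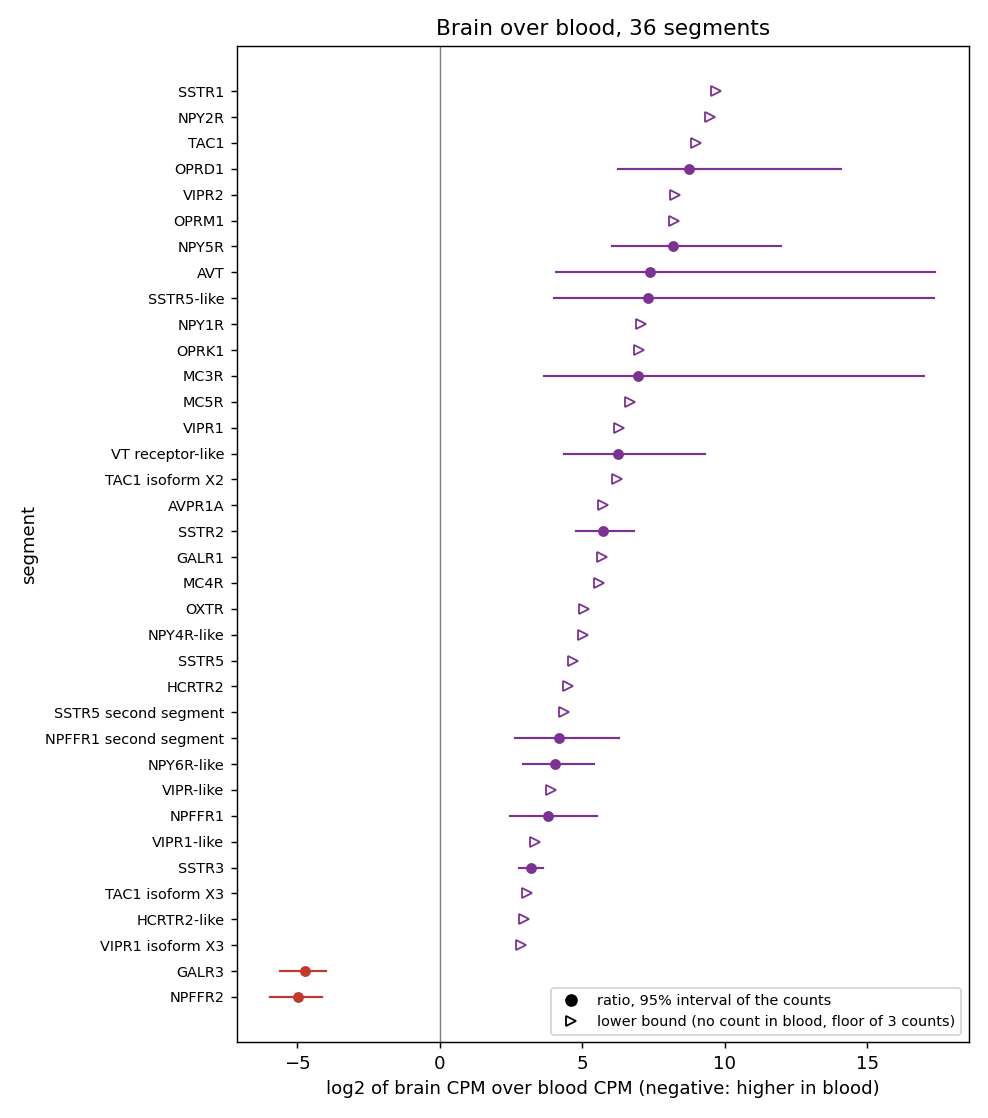
Log2 ratio of brain CPM over blood CPM for the 36 segments, sorted. Filled circles carry the 95% interval of the counts. Open triangles are brain over a floor of 3 counts where blood had no count, drawn as lower bounds though they are not 95% limits. All points lie right of 0 except GALR3 and NPFFR2, whose intervals lie left of it.

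Across all 36 segments, blood held no count at all for 23 (13.2% of all segments had none), for which the 95% Poisson upper limit is 0.116 CPM and the floor of 3 counts 0.0941 CPM. A difference of 4-fold or more between brain and blood, on levels with 1 CPM added, was met by 20 members in the direction of brain (43.3% of all segments) and by 2 in the direction of blood (4.55%). The median of log2((brain CPM + 1)/(blood CPM + 1)) was 2.24 over the members and 1.54 over all segments, and 27 of 36 members lay above the median of all segments. With blood set to its 3-count floor where it was 0 and nothing added to the levels, the median log2 ratio of the members was 5.70. Rescaling moved all genes: TMM shifted the median of all segments by -1.13 and left 13 members in the direction of brain (27.2% of all segments), and DESeq2 size factors shifted it by -1.23 and also left 13 (26.1%). Under both, the 7 below 4-fold were SSTR3, OXTR, NPY4R-like, the vasotocin receptor-like segment, GALR1, MC4R and AVPR1A, at log2 differences between 1.08 and 1.91. Of all calls over the whole table, 90.5% were in the direction of brain as CPM, 66.1% with TMM, 62.4% with DESeq2, 80.7% without the 50 most abundant segments of each tissue and 81.1% without hemoglobins. The 2 blood receptors stayed 4-fold or more higher in blood under each of these scalings. The members' median stood above that of all segments by 0.71 as CPM, by 1.12 with DESeq2 and by 0.28 with a pseudocount of 2 CPM.

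Most matched precursors of the peptides were present in brain, a share near that of all segments, and none was present in blood as CPM. Of 24 listed precursors 14 were matched by name. Present were 12 in brain (87.7% of all segments), 0 in blood (57.7%), 4 in ovary (88.3%) and 1 in spleen (83.4%). Of the 14, 9 were 4-fold or more higher in brain than in blood (43.3% of all segments). No precursor of the list that was matched reached 1 CPM in blood, the highest there being GAL at 0.47 CPM. Removing the 50 most abundant segments raised blood levels, that of the accessory protein MRAP2 from 1.02 to 2.35. The same factor takes GAL just past 1. Precursors were not counted under other scalings. The precursor of pituitary adenylate cyclase-activating polypeptide, ADCYAP1, was at 37.9 CPM in brain and 0 in blood. The other 10, NPFF, GALP and POMC among them, were not analysed here.

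**Figure D5:**
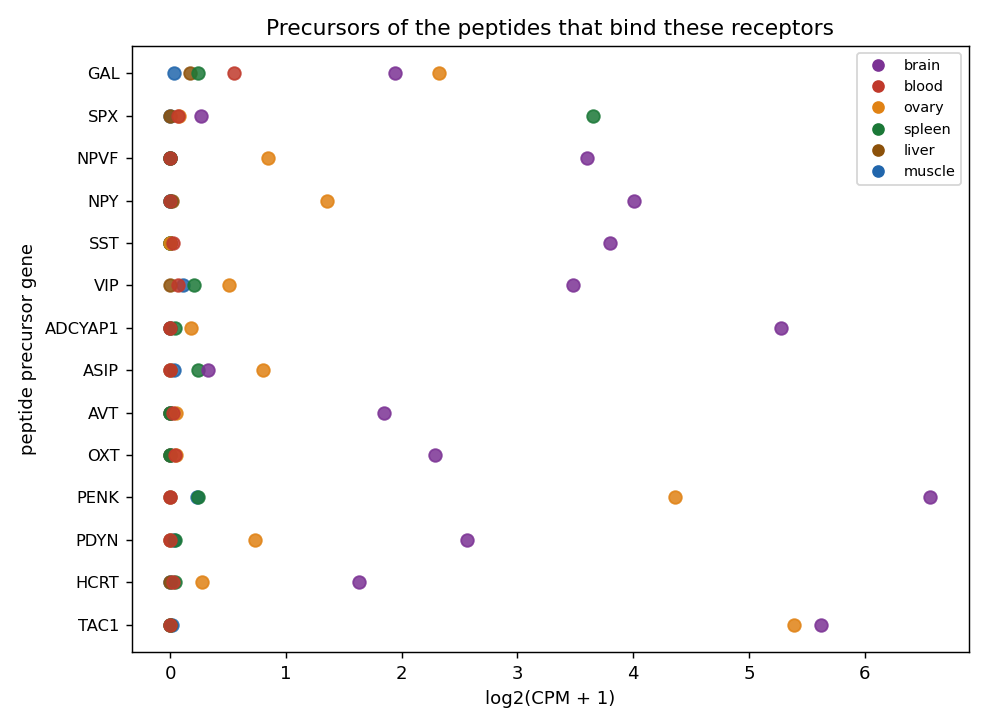
Levels of 14 peptide precursor genes as log2(CPM + 1) on the horizontal axis, with 1 dot per tissue pool. The brain dot lies farthest right for 11 of the 14, the ovary dot for GAL and ASIP and the spleen dot for SPX, while no blood dot reaches 1 CPM.

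Of 9 listed receptors of the same families that carry other names, 7 were matched. Of these, 6 were present in brain (87.7% of all segments) and 0 in blood (57.7%). The nociceptin receptor OPRL1, the opioid-like member, was at 43.0 CPM in brain, 0 in blood and 4.03 CPM in spleen, and the PACAP receptor ADCYAP1R1 at 42.3 CPM in brain, 0 in blood and 3.70 CPM in ovary. The RFamide receptor QRFPR was at 13.4 CPM in brain, 0.204 CPM in blood, 5.35 in ovary and 4.27 in liver. The corticotropin receptor MC2R, the gatekeeper of adrenal steroid output, had no count in brain or blood and 1.97 CPM in ovary. The neurokinin receptor TACR3 and the prolactin-releasing peptide receptor PRLHR were at 1.32 and 1.35 CPM in brain and at 0 and 0.0941 CPM in blood. Of 33 listed receptors for other peptides, 24 were matched. Of these, 17 were present in brain (87.7% of all segments) and 1 in blood (57.7%), the motilin receptor MLNR.

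Of 22 listed signalling partners 20 were matched, of which 20 were present in brain (87.7% of all segments) and 12 in blood (57.7%). The share in blood lies near that of all segments. The inhibitory G protein alpha subunits, through which galanin, opioid, somatostatin and neuropeptide Y receptors act, were each higher in brain than in blood as CPM, though GNAI3 was at 41.9 in brain and 42.1 in blood with DESeq2 scaling. GNAO1 was at 268.0 CPM in brain and 0.0941 CPM in blood, GNAZ at 131.8 CPM in brain and 0 in blood, GNAI1 at 116 CPM in brain and 2.12 CPM in blood, GNAI3 at 77.0 CPM in brain and 20.2 CPM in blood, and GNAI2 at 46.5 CPM in brain, 11.1 CPM in blood and 246.8 CPM in spleen. The stimulatory subunit GNAS had 33.2 CPM in brain and 41.9 CPM in blood and the phospholipase-linked GNA11 had 109.6 CPM in brain and 73.6 CPM in blood. The order of GNA11 turned round with TMM scaling, at 58.3 in brain and 130.3 in blood. It also did so with DESeq2 scaling and without the 50 most abundant segments or the hemoglobins. Of the potassium channel subunits opened by these receptors, KCNJ3 was at 95.2 CPM in brain and 0.0784 CPM in blood. Of the proteins that switch the receptors off, beta-arrestin-1 (ARRB1) was at 135.8 CPM in brain and 12.4 CPM in blood and the receptor kinase GRK3 at 172.8 CPM in brain and 12.97 CPM in blood. The kinases GRK2, GRK4 and GRK6 were nearer in level as CPM, at 28.2, 26.0 and 8.59 CPM in brain and 29.3, 27.1 and 6.62 CPM in blood. With TMM scaling they were higher in blood, at 15.0, 13.8 and 4.57 in brain and 51.8, 48.0 and 11.7 in blood. GRK5 was at 64.8 CPM in brain and 0.784 CPM in blood.

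The platforms were compared for each member. The highest tissue was the same on NextSeq and MiSeq for 31 of the 36 segments, the exceptions being HCRTR2, VIPR1, VIPR1 isoform X3, NPY4R-like and GALR1. In its highest tissue, the ratio of NextSeq over MiSeq had an interval that held 1 for 36 of 36. For members with few MiSeq counts the interval was wide, as for HCRTR2 (0.377 to 89.8). It could hardly leave out 1 there, so it says little of their agreement. A single count is worth 0.499 to 0.989 CPM in a MiSeq library and 0.0245 to 0.0646 CPM in a NextSeq library, so MiSeq values near 1 CPM rest on 1 or 2 counts.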

How the data were processed

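RNA of 6 tissues, 1 pool of 2 females each, was measured in 12 libraries. After trimming, the authors mapped reads to the protein-coding segments they had assembled. The submitters' processing notes list STAR 2.5.2a and Trimmomatic 0.36. The study's methods give BWA-MEM as the mapper, and which made the table was not settled. The deposited table holds values in steps of 0.5 for 14908 segments, taken to be expected counts per segment, estimated by the authors and not normalized; 8 of its columns write values of 1000 and more with separators and were read as numbers. As the table carries no length or sequence, none is printed.

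CPM was the sum of a tissue's NextSeq and MiSeq counts over the sum of their totals. Presence was 1 CPM; called was 4-fold on CPM plus a pseudocount of 1. Level intervals are exact Poisson and ratio intervals exact conditional (Clopper-Pearson) at 95%, with values in steps of 0.5 entered as they are. A fold against 0 counts uses a floor of 3 counts per tissue. Such a fold is a nominal value and not a 95% limit. τ used natural logs with levels under 2 CPM set to 2. Calls and ratio intervals were tested on simulated data at levels and counts higher than those of many members. Ratios that rest on a few counts were not covered.

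Members, their families and 4 lists of related genes were chosen with earlier results of these data known, and name matches were adjusted after the file was seen. Every member was named, those at 5 CPM or more in a tissue with library values; of each list up to 6 genes were taken by their level in brain or blood, GAL, SPX, VIP, OXT, HCRT, PDYN, ASIP, MC2R, GNAI2, GNAI3, GNAS, KCNJ3, GRK2, GRK4, GRK5, GRK6 and, in the closing section, MLNR, RXFP3, GCGR, MRAP2 and RAMP2 being named besides after their values were seen. Nearest patterns were the 3 closest segments. Alternatives were each platform alone, their mean, TMM (edgeR 4.0.16) and DESeq2 1.42.0 factors from rounded counts, totals without the 50 most abundant segments, thinning, summed names, other thresholds, pseudocounts and τ scales, and, added after seeing the data, totals without hemoglobins. R 4.3.3 and Python 3.11.15 with scipy 1.17.1 were used. Segments of 1 locus (9 in 4 loci) may share reads.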

Additional observations from a re-analysis of the deposited data

How the results depend on the processing

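Each tissue is 1 pool, so the results are levels and counts without a test, and replicates of a library are platforms. No paired analysis was possible because the groups are single pools and no result comes from a test. With 1 platform left out, the members present numbered 30 to 31 in brain (85.9% to 87.7% of all segments) and 3 in blood (57.4% to 58.5%). In ovary they numbered 13 to 14 (88.3% to 88.6%) and in spleen 7 (81.1% to 83.3%). Liver held 4 (66.5% to 67.4%) and muscle 2 to 3 (59.7% to 61.1%). The brain share thus stayed near that of all segments. Those 4-fold or more higher in brain than in blood numbered 19 to 20 (43.3% to 43.8% of all segments) and those higher in blood 2 (4.57% to 4.78%). The median log2 ratio of brain over blood was 2.16 to 2.22, against 1.54 to 1.57 over all segments. The highest tissue was brain for 26, blood for 2, ovary for 3 and spleen, liver or muscle for 1 to 3. Shares of all present segments were taken with both platforms only. They were 24.9% for brain, 8.89% for blood, 32.1% for ovary, 23.7% for spleen, 6.23% for liver and 4.11% for muscle. Presence in brain alone held for 11 to 14, in blood alone for 2, in ovary alone for 0 and in spleen, liver or muscle alone for 0 to 1. With both platforms, 3.04% of all segments were present in brain alone, 0.409% in blood alone and 2.33% in ovary alone. For spleen, liver and muscle alone the shares were 1.21%, 0.463% and 0.376%. The median τ was 0.476 to 0.573, and 0.461 over all present segments with both platforms.

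Members present in muscle numbered 6 with TMM (70.7% of all segments), 6 with DESeq2 (70.7%) and 8 without the 50 most abundant segments (72.8%). They numbered 6 at a threshold of 0.5 CPM and 1 at 2 CPM, where the shares of all segments were not taken. The members 4-fold or more higher in brain numbered 13 with TMM (27.2% of all segments), 13 with DESeq2 (26.1%), 12 at 8-fold (29.7%), and 29 and 14 with pseudocounts of 0.5 and 2 CPM (47.6% and 37.9%). The median log2 ratio was 1.41 with TMM, 1.43 with DESeq2, 2.05 without hemoglobins, 2.48 with segments of a name summed, and 2.88 and 1.54 with pseudocounts of 0.5 and 2 CPM. Highest in spleen, liver or muscle were 5 with TMM, 4 with DESeq2 and 2 without the 50 most abundant segments. The share of all segments highest in these tissues was not taken under those scalings. At 0.5 CPM, presence in blood alone held for 0 members, as GALR3 and NPFFR2 then counted as present in brain. The median τ was 0.494 with the mean of the platforms, 0.968 with a floor of 1 CPM and 0.921 on a linear scale. With a floor of 1 CPM, a segment above 1 CPM in a single tissue scores 1 by construction. Medians of τ over all segments were not taken under these settings. The other counts of members stayed within 1.5 times their value, and 2 members stayed 4-fold or more higher in blood in each setting. The sign of the difference was kept by 36 of 36 members in each setting but MiSeq alone (35), where VIPR1 isoform X3 had no count in either tissue and the 4-fold difference of NPY4R-like, AVPR1A and TAC1 isoform X2 was lost, at log2 differences of 1.99, 1.80 and 1.80. Depth limits members under 1 CPM, and a single pool of 2 females leaves the spread between birds unknown.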

Other observations

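Among the receptors for other peptides, the motilin receptor MLNR, which in mammals drives gut contractions between meals, was the matched gene present in blood. It had 0.61 CPM in brain and 6.24 CPM in blood from 199 counts there, 0.783 CPM in ovary and 0 in spleen and muscle. It was 4-fold or more higher in blood than in brain, as 4.55% of all segments were. The corticotropin-releasing hormone receptors CRHR1 and CRHR2 were at 42.6 and 42.7 CPM in brain and had no count in blood. The neurotensin receptor NTSR1, the calcitonin receptor-like receptor CALCRL and the relaxin receptor RXFP1 were at 22.4, 20.3 and 13.1 CPM in brain and at 0, 0.047 and 0.0157 CPM in blood.

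Several related genes had levels outside brain and blood. The relaxin-3 receptor RXFP3 was at 0.915 CPM in brain, 0 in blood and 17.7 CPM in ovary. The accessory protein MRAP2, a partner of melanocortin receptors, was at 4.93 CPM in brain, 1.02 CPM in blood and 109.0 CPM in ovary. The adrenomedullin receptor component RAMP2 was at 2.24 CPM in brain, 0.753 CPM in blood and 40.6 CPM in spleen. The endothelin-1 receptor EDNRA, known from smooth muscle, was at 23.0 CPM in brain, 0 in blood and 267.3 CPM in spleen, and the glucagon receptor GCGR at 1.40 CPM in brain, 0.58 CPM in blood and 93.5 CPM in liver.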
